A study of Drosophila melanogaster with 4 samples.

Results

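The gene broad (br, Dmel_CG11491), also known as the Broad-Complex, lies near the tip of the X chromosome of Drosophila melanogaster and carried a dense group of Abd-B-GFP peaks in wandering larvae. The locus was chosen by the positions of its peaks: a peak belonged to it if its midpoint fell in a window of 112 kb on X that takes in br and its near flanks. On FlyBase release 5, used for all positions here, the window begins 4.97 kb before its first peak, at 1454969, and ends 7.43 kb after its last, at 1554574. Of the 2949 peaks of the deposited list 45 met this rule, out of 480 on X. The crowding of peaks here is what brought the locus to attention, so their number and spacing are given as a description and were not tested.

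The data come from chromatin immunoprecipitation followed by sequencing (ChIP-seq), in which DNA cross-linked to a protein is recovered with an antibody and mapped. The larvae were at the wandering L3 stage, of the strain Abd-B-GFP with the genotype w; PBac{y[+]-attP-3B}VK00037, and their age is not given. Their transgene holds genomic DNA of Abd-B with GFP, a fluorescent tag, in place of the stop codon, and all libraries, input included, come from that strain by their labels. In 2 libraries the chromatin had been precipitated with anti-GFP, and the other 2 hold input DNA. The tagged protein came from an added transgene, whole larvae were collected with no tissue named, and the collection protocol names a fly stock other than the strain label. The only processed data used here are 1 peak list for all libraries together, which gives each peak a position and a single score set by the authors' peak caller. No value below therefore carries an error between replicates, the depth is not known, and stretches without a peak cannot be taken as unbound.

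Abd-B is the most posterior Hox transcription factor of the fly and gives the posterior abdominal segments their identity. The br gene encodes a family of transcription factors that share a BTB domain, through which such proteins pair, and differ in the zinc fingers that alternative splicing adds. It is an early gene of the response to the steroid hormone ecdysone, turned on when the hormone rises at the end of larval life, and it is needed for the change from larva to pupa. The RefSeq gene table (release 6) lists 16 transcripts for br, over 89.7 kb.

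The peaks were spread along most of the length of br, with gaps of up to 8.01 kb, and ran past its left end, the end towards the tip of X. The first of the 45 began 14.2 kb to the left of br, and the last ended 85.4 kb from the left end and 4.33 kb short of the right one. By position, 9 peaks lay left of br, 1 lay over its left end and 35 lay wholly within it. Gene ends were set on the peaks' scale by 1 constant shift between releases that came with the rule for the locus. That shift was not checked against a release 5 genome, and the table gives no strand, so the ends are called left and right rather than start and stop. Peaks cannot be assigned to br alone. The gene table also lists Mur2B, a mucin-related gene of 145 kb, whose extent takes in all of br and the midpoints of all 45 peaks.

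**Figure D1:**
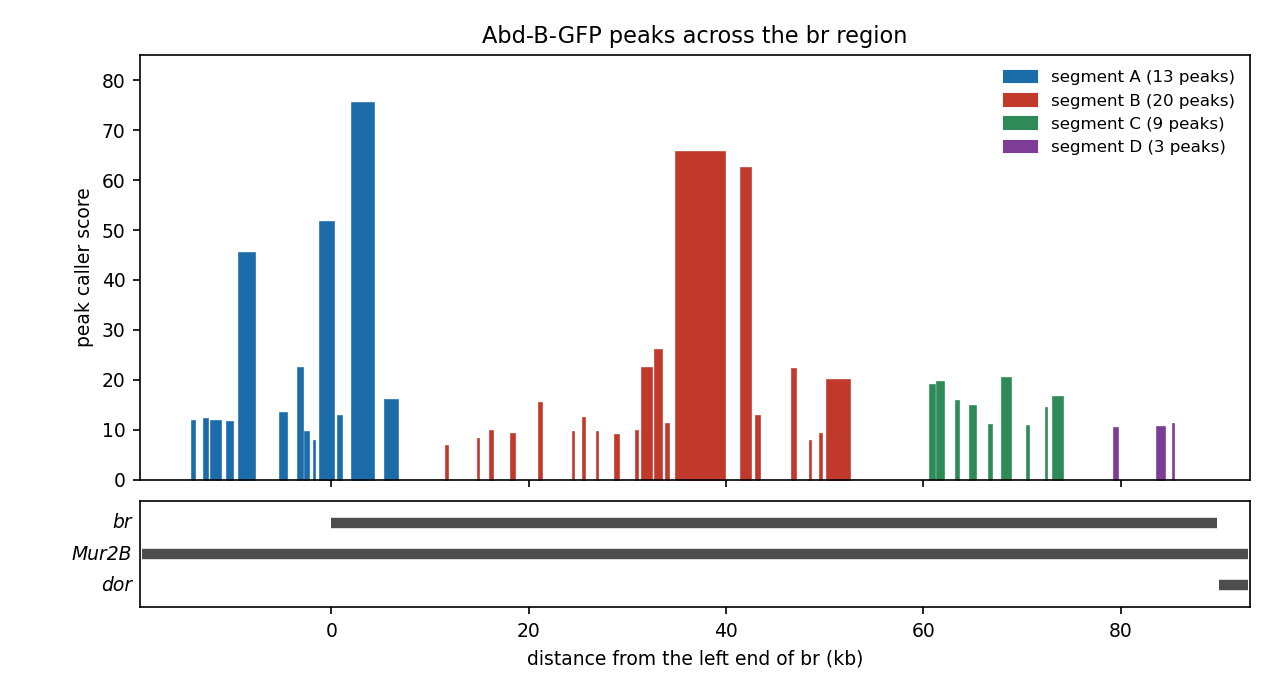
Peaks of the br region, each drawn as a bar from its first to its last base (horizontal axis, distance from the left end of br in kb) and as high as its peak caller score (vertical axis). Colours mark the 4 segments between the longest gaps, and the lower panel gives the extents of br, Mur2B and dor, with Mur2B and dor cut off at the borders of the region. The highest bars stand around the left end of br and between 31.4 and 42.5 kb into it.

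The 45 peaks covered 35.7 kb, or 31.9% of the region, against 0.807% of the rest of X up to its last peak. There were 4.02 peaks per 10 kb, against 0.195 elsewhere on X. The region is 0.5% of the length of X and held 9.38% of its peaks and 16.6% of its peak-covered bases. A few broad peaks made up much of this length: the 5 widest held 36.9% of the covered bases, and the widest alone held 14.2%. Within the extent of br alone, 35 peaks by midpoint covered 31.1% of the gene. Left of it, 10 peaks by midpoint covered 40.7% of 19.2 kb.

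Stretches without a peak lay on both sides of the group, which in part follows from placing the window around it. Gaps on the rest of X had a median of 18.3 kb and reached 510 kb, so gaps of this size are not particular to the locus. The nearest peak outside on the left lay 37.0 kb from the first member, from 1417525 to 1417965 with a score of 11.2, over the left end of Mur2B. The nearest on the right lay 31.0 kb beyond the last member, from 1585566 to 1585948, with a score of 9.06. The 100 kb on the left of the region held 5 peaks and the 100 kb on the right held 2, and none of these was wider than 470 bp. No peak lay within the extent of dor, the neighbour of br on the right, which encodes a vacuolar sorting protein. Its left end was 4.51 kb from the last member. The small RNA gene sncRNA:400 at the left border held none either, and was 2.54 kb from the first member.

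The 3 longest gaps split the peaks into 4 segments. The longest, 8.01 kb, lay between a peak that ended at 1521744 and one that began at 1529751. The next was 5.10 kb, between peaks that ended at 1543303 and began at 1548400. Another, of 4.76 kb, lay between peaks that ended at 1475921 and began at 1480682. The segments are named A to D from left to right.

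Segment A held 13 peaks in 21.0 kb, from 1454969 to 1475921, and covered 59.1% of it. It spans the left end of br, from 14.2 kb before the end to 6.76 kb inside. Its opening peak, from 1454969 to 1455359, was of modest width and score (391 bp, 12.1). The peak over the left end of br ran from 1467951 to 1469434, was 1484 bp wide and scored 51.8. The strongest peak of the whole locus followed, from 1471112 to 1473512, with its midpoint 3.15 kb inside br. It had a score of 75.7 and a width of 2401 bp. It ranked 11 on X and 62 in the list by score. Another strong peak, from 1459696 to 1461463, had its midpoint 8.59 kb left of br, a score of 45.5 and a width of 1768 bp. Between that peak and br lay one from 1465721 to 1466285 with a score of 22.5 and a width of 565 bp. The other 8 peaks of the segment scored from 7.88 to 16.3, and 5 of the 13 were wider than 1 kb. The last of them, from 1474469 to 1475921, was 1453 bp wide but scored only 16.3. Gaps within the segment had a median of 0.517 kb and reached 2.38 kb.

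Segment B held 20 peaks in 41.1 kb, from 1480682 to 1521744, all inside br. It opened with 10 low and narrow peaks over 19.6 kb, from 1480682 to 1500249. These had a median score of 9.73 (range 6.9 to 15.6), a median width of 310 bp and none wider than 529 bp, and they covered 16.8% of their stretch. The peak that opens the run, from 1480682 to 1480989, had the lowest score of the 45, 6.9. A broad block of 5 peaks followed, 31.4 to 42.5 kb from the left end of br, which covered 77.8% of its 11.2 kb. These subdivisions of the segment were made after the values were seen.

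The widest peak of X stood in this block, over 5065 bp from 1504022 to 1509086, and scored 65.8. To its right, from 1510563 to 1511691, stood a peak 1129 bp wide with a score of 62.7. To its left lay a peak from 1500515 to 1501692 (1178 bp, score 22.5) and one from 1501870 to 1502710 (841 bp, score 26.1). The remaining peak of the block, 485 bp wide, scored 11.5. The right part of the segment held 5 peaks. One of them, from 1515724 to 1516226, scored 22.3 at a width of 503 bp. The closing one, from 1519266 to 1521744, was 2479 bp wide, the second widest of X, with a score of 20.2.

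Segment C, 60.6 to 74.1 kb from the left end of br, held 9 peaks in 13.6 kb and covered 41.9% of it. Its peaks were of even height, with scores from 10.9 to 20.6 and a median of 15.9. The highest was 997 bp wide, from 1536996 to 1537992. The segment opened with a peak of 583 bp and a score of 19.1 and closed with one of 1094 bp and a score of 16.8. Of the 9 peaks 7 scored at least 14.2, the median of the whole list, and none reached 22.4, above which 25.0% of the list lie. Segment D held the last 3 peaks, 79.2 to 85.4 kb from the left end, with scores of 10.6, 10.9 and 11.5. The last of them, from 1554300 to 1554574, was the peak nearest to the right end of br.

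**Figure D2:**
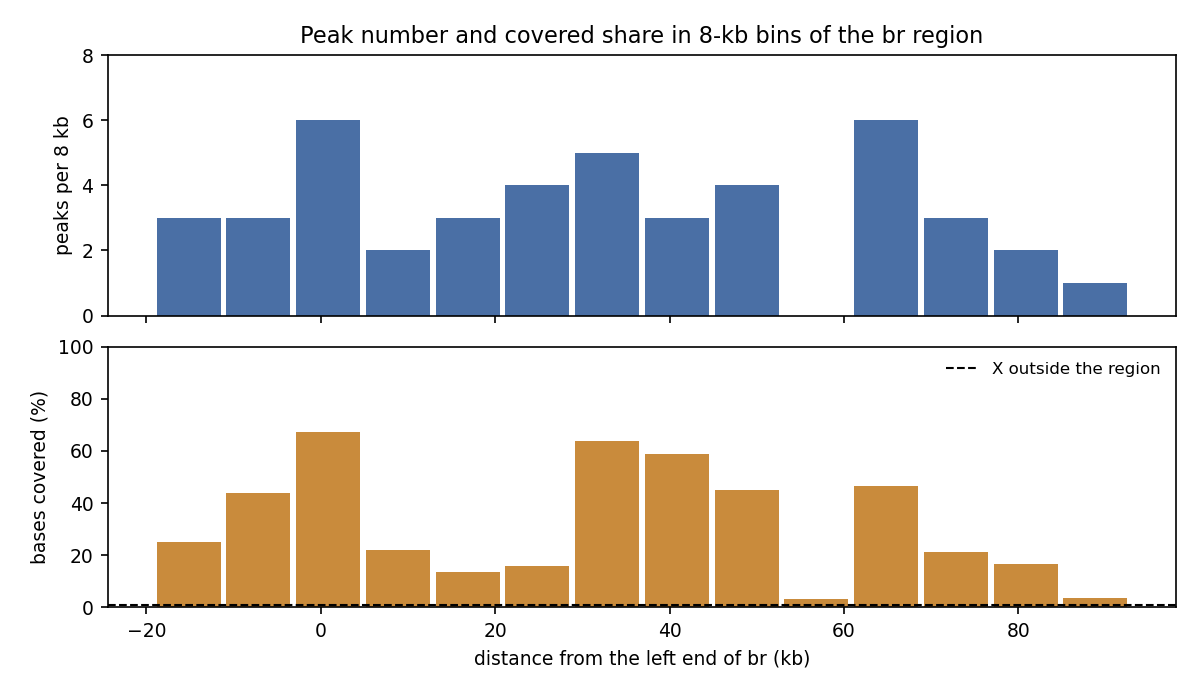
Number of peaks by midpoint (upper panel) and percent of bases covered by peaks (lower panel) in 14 bins of 8 kb, against the distance from the left end of br in kb. The dashed line marks the 0.807% covered on the rest of X. The bin around the left end of br held 6 peaks and was 67.4% covered, and the bin in the longest gap held no midpoint and was 3.11% covered.

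The 3 most covered 8-kb bins lay in 2 places along the locus. The bin over the left end of br was 67.4% covered. The 2 bins from 28.8 to 44.8 kb were 64.0% and 58.7% covered. Next came the bin from 60.8 to 68.8 kb, 46.5% covered. Close to it were the bin from 44.8 to 52.8 kb, at 44.9%, and the bin from -11.165 to -3.165 kb, at 44.0%. Bins with more peaks were mostly the more covered ones, with exceptions. The bin from 20.8 to 28.8 kb held 4 peaks but was 15.9% covered, while the bin from 36.8 to 44.8 kb held 3 and was 58.7% covered. The lowest were the 2 bins at 3.11% and 3.44%. These too exceed the 0.807% covered on the rest of X, but any 8-kb bin that holds 1 whole peak must do so. No peak of X was narrower than 200 bp.

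Members had a higher median width than the rest of X, but not a higher median score. The median width of members was 503 bp (95% order-statistic interval 419 to 690), and that of the other X peaks was 340 bp (323 to 368). These intervals treat peaks as independent, which neighbours in 1 locus need not be. Of the 45 peaks 10 were wider than 1 kb, a size chosen after the widths were seen, where 2.51% of the whole list were. X held 18 such peaks in all, so 55.6% of them lay here. The 3 widest peaks of X were all members, and the widest outside was 2397 bp. The narrowest member was 211 bp. Of the 45 members 8 were under 300 bp, against 163 of the 435 other X peaks.

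The median score of members was 12.7 (95% order-statistic interval 11.2 to 15.9), and that of the other X peaks was 14.5 (13.3 to 15.6). The intervals overlap, which is not a test of a difference. A score of at least 14.2 was reached by 19 of 45 members and by 50.0% of the whole list. A score of at least 22.4 was reached by 8 of 45 members and by 25.0% of the whole list. Of the 28 peaks of X that scored above 50, 4 were members, and the highest score outside the locus on X was 146.

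Wide and strong peaks overlapped in part. Of the 10 widest and the 10 strongest members 6 were shared, and Spearman's rho between the 2 measures was 0.749 over the 45 members and 0.605 over the 435 other peaks of X. Both values come from the same peak calls. Within bands of score the median width of members was also the higher one, by least at the low end. Below a score of 10 the median width was 275 bp in 10 members and 254 bp in 68 other X peaks. From 10 to under 15 it was 452 bp in 18 members and 299 bp in 157 others. From 15 to under 25 it was 843 bp in 11 members and 383.5 bp in 124 others. At 25 and above it was 1626 bp in 6 members and 561 bp in 86 others. That band has no upper limit, so the scores of members and others in it need not be alike. The longest run of peaks on 3R, the arm that holds Abd-B, was also above the rest of X in each band. Gene positions on 3R were not examined. Whether that run lies over Abd-B, whose DNA the transgene also holds, is therefore not stated. Its median widths were 281, 378.5, 622 and 1152 bp from the lowest band to the highest (12, 18, 20 and 5 peaks).

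**Figure D3:**
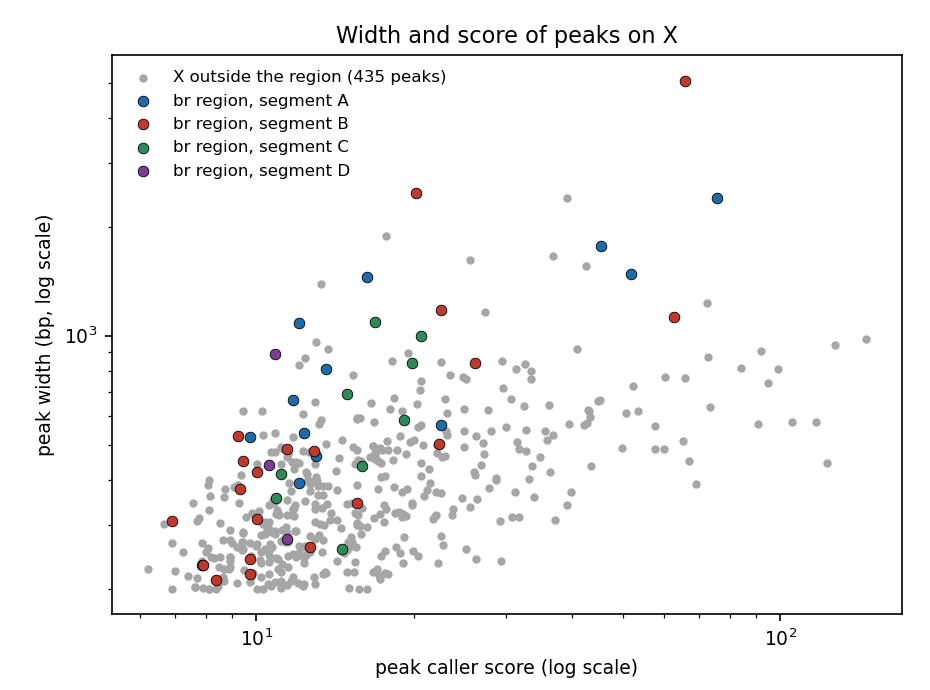
Width in bp against peak caller score, both on log scales, for the 45 peaks of the br region (coloured by segment) and the 435 other peaks of X (grey). Each point is 1 peak. From scores of 15 to under 25 the median width was 843 bp in members and 383.5 bp in the others, and the widest peak, 5065 bp, is in segment B.

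Gaps between neighbouring members were short. Their median was 0.964 kb over 44 gaps, with a range from 90 bp to 8.01 kb, against a median of 18.3 kb over 433 gaps on the rest of X. Of the 44 gaps 23 (52.3%) were under 1 kb and 6 (13.6%) were over 3 kb. On the rest of X 13.6% of gaps were under 1 kb and 77.1% were over 3 kb. The longest run on 3R, which by definition has no gap above 5 kb, was close to the locus in short gaps. There 53.7% of gaps were under 1 kb and 5.56% were over 3 kb. X had 82 gaps under 1 kb in all, so 28.0% of them lay here. With gaps of up to 5 kb allowed, the members formed runs of 33, 9 and 3 peaks, and with gaps of up to 10 kb they formed 1 run of 45. With gaps of up to 2 kb the longest run held 11 peaks, from 1493510 to 1512589, and ended 1 peak past the broad block. The run of 9 peaks that makes up segment C held together at each of the smaller limits.

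**Figure D4:**
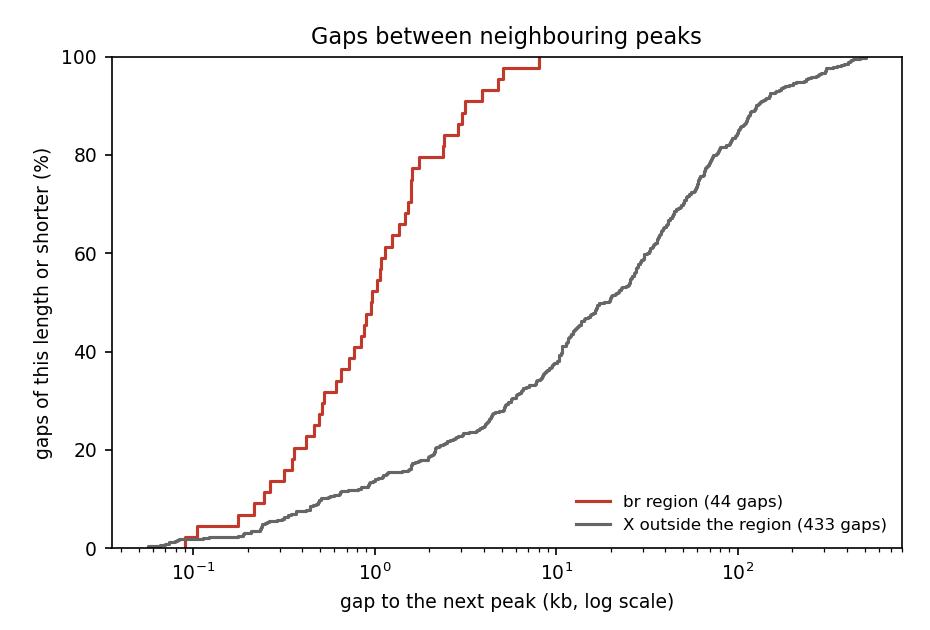
Share of gaps (percent, vertical axis) at or below a given length (kb, log scale) for neighbouring peaks within the br region (44 gaps, red) and on the rest of X (433 gaps, grey). The red curve reaches 100% at 8.01 kb, below the grey median of 18.3 kb.

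The locus was set beside the rest of the chromosome arms. Of 1067 windows of 112 kb laid end to end over the arms outside the locus, the median window held 2 peaks and 288 held none. Only 1 window, on 3R from 12768001 to 12880000, held at least 45 peaks, with 46, and the next fullest held 19. Peaks covered 26117 bases of that window on 3R, the most of any window, against 35724 in the br region. The windows were laid without regard to peaks, whereas the br region was placed around its own. The longest run of peaks on 3R held 55 peaks in 93.0 kb, which covered 33354 bases. That is 35.9% covered at 5.92 peaks per 10 kb, against 31.9% and 4.02 in the br region. The run is measured from its first peak to its last, whereas the br region includes stretches without a peak at both ends. The run had a median gap of 0.967 kb, a median width of 512 bp (95% order-statistic interval 365 to 595) and a median score of 14.3. The interval for width overlaps that of the br peaks, which again is not a test. Of those 55 peaks 7 were wider than 1 kb, and the widest was 2991 bp.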

How the data were processed

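The series holds 2 ChIP and 2 input libraries, grouped by title. Reads were processed with CASAVA 1.7.0.2 and 1.7.0.3, BWA and MACS2 on BDGP5, per the submitters' processing notes. Parameters, the control and the pooling of replicates are not stated there or in the file. All library titles hold the term vMock, but whether peaks were called against input or a mock is not stated. The deposited table (GFF version 3, FlyBase release 5, per the file headers) gives the authors' peak positions and 1 score per peak of unnamed scale, used only to describe and rank peaks. Its lowest start is 0, so 1 was added to starts. Widths, gaps, runs (gaps up to 5 kb), covered bases and medians with binomial order-statistic intervals were computed in Python (3.11.15) using pandas 2.3.3, numpy 2.4.6 and, for the intervals, scipy 1.17.1. The functions were tested on simulated data. No test was made. Gene names and distances come from the RefSeq table (release 6). Peaks named are the 10 strongest, the 5 widest, the first and last, and those beside gene ends, borders and the 3 longest gaps. A few more were named after their values were seen. The locus, thresholds and comparisons were chosen with earlier results of these data known. Sequences and other ecdysone genes were not analysed here, for want of a release 5 genome or annotation. Alternatives are in the closing section.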

Additional observations from a re-analysis of the deposited data

How the results depend on the processing

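No paired analysis was possible because libraries have no values of their own in these data, and for the same reason no replicate could be left out. Of the 45 peaks, 19 remained with only the 1474 highest-scoring peaks of the list and 8 with the 737 highest-scoring, and merging peaks under 1 kb apart left 22. The longest run, 33 peaks, was 11 with gaps up to 2 kb, 15 with merged peaks, 7 with the 1474 and 4 with the 737 highest-scoring. The covered share, 31.9%, was 31.1% in the extent of br alone, where the length it is taken over changes too. It was 21.5% with the 1474 and 12.9% with the 737 highest-scoring. The median width, 503 bp, was 997 bp and 1331 bp in those subsets and 1064 bp after merging, and the median score, 12.7, was 20.6 among the 1474 highest-scoring. Over a fixed region, fewer peaks or a shorter limit on gaps can only lower the counts and the covered share. Merging joins neighbours into wider peaks, and a cut on score raises the median score. Width rose with score over the 45 members (Spearman's rho 0.749). The cause of the higher median width after a cut on score was not tested. In the other 7 of 21 alternatives counts stayed within 1.5 times and medians within their intervals.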
